A study of Homo sapiens with 14 samples.

Results

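The genes examined here encode proteins of the nucleus, several of them read by their levels as markers of dividing or of senescent cells. They are the lamins LMNB1, LMNB2 and LMNA, the lamin B receptor LBR and the chromatin proteins HMGB1, HMGB2 and HMGB3. With them are the proliferation marker MKI67 and the topoisomerases TOP2A and TOP2B. The 10 genes were chosen by name, with earlier results of these data known. All 10 were found among the 26732 gene symbols listed for both cell lines. RNA was sequenced from A549 and H1792, established human cell lines of lung adenocarcinoma (LUAD), after 48 h with 0.1 µM AMG900, an inhibitor of the aurora kinases that drive chromosome segregation, or with its solvent DMSO. A549 cells were grown in DMEM and gave 4 DMSO and 4 AMG900 libraries, while H1792 cells were grown in RPMI and gave 3 DMSO and 3 AMG900 libraries. Both media held serum, penicillin and streptomycin. The protocol states 3 dishes per treatment, fewer than the A549 libraries listed, and does not say that the extra libraries came from separate cultures, so the p-values measure the spread between these libraries, part of which may be technical.

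The lamins line the inner face of the nuclear membrane. B-type lamins stay attached to that membrane, LMNA makes lamins A and C, and LBR holds heterochromatin and B-type lamins at the envelope. HMGB proteins bend DNA, and loss of LMNB1, HMGB1 and HMGB2 is widely used as a sign of senescence. Ki-67, the product of MKI67, coats mitotic chromosomes, TOP2A untangles sister chromatids in dividing cells, and TOP2B does related work on transcribed genes in dividing and resting cells alike.

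The promoters of 4 of the genes are shown because they stand for the patterns found below: MKI67 and TOP2A, which were called lower in A549 alone, and LMNB1 and TOP2B, which were called lower in both lines. Each is the RefSeq window of 250 bases before to 50 after the transcript start in GRCh38.p14, written 5′ to 3′ on the strand of the gene, at chr10:128126374-128126673, minus strand for MKI67, chr17:40417847-40418146, minus strand for TOP2A, chr5:126776886-126777185, plus strand for LMNB1 and chr3:25664858-25665157, minus strand for TOP2B. Capitals mark the motifs found on either strand, namely CCAAT, the letters bound by NF-Y (ATTGG when on the other strand), and TTTGAA and TTTAAA, core letters of the cell cycle homology region (TTCAAA for TTTGAA on the other strand).
MKI67: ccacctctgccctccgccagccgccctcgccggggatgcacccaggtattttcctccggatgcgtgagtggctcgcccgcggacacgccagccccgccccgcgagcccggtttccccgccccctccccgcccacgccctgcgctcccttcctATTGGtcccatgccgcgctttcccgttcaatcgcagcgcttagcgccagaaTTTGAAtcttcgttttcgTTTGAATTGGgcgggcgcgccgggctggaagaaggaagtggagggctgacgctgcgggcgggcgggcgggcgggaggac
TOP2A: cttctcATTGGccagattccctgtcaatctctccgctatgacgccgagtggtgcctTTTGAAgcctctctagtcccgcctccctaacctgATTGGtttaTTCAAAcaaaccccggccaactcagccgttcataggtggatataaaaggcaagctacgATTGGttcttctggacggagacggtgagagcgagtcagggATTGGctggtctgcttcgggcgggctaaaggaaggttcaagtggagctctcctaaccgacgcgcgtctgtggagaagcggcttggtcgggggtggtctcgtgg
LMNB1: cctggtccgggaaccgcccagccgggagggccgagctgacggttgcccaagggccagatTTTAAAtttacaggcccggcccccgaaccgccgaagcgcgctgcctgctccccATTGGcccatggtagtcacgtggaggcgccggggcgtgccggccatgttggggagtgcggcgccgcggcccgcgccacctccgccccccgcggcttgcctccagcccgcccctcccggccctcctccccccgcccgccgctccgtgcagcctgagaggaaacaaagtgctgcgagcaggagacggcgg
TOP2B: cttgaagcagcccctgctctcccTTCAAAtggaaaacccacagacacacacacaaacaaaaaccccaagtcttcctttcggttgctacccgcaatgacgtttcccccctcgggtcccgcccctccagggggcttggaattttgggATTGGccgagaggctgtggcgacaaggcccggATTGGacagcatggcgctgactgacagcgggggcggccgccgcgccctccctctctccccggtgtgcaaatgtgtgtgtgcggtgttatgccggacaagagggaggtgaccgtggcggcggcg

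Counted from the start base as 0, the MKI67 window held TTTGAA at -47 and -29 and CCAAT at -98 and -24, the last sharing 1 base with the TTTGAA before it. TOP2A had TTTGAA at -194 and -151 and CCAAT at -244, -160, -93 and -53. The LMNB1 window held TTTAAA at -191 and CCAAT at -138, and the TOP2B window TTTGAA at -227 and CCAAT at -105 and -73. Among all 35116 RefSeq promoter windows of this length, 15.2% held TTTGAA, 12.2% TTTAAA and 34.6% CCAAT. The E2F-type letters GCGGGAA and GCGCGAA, held by 6.55% and 2.24% of all windows, were not found in these 4 windows. Of the 10 genes, 9 had a RefSeq window, some of them more than 1. Of their 16 windows, 6 held TTTGAA, 5 TTTAAA, 8 CCAAT, 1 GCGGGAA and 0 GCGCGAA, so the 4 shown do not stand for all. These matches are letters in a window and were not tied to any binding.

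Total counts ranged from 4254644 to 18962883 in the A549 libraries and from 42760874 to 79902934 in the H1792 libraries. The epithelial keratin KRT8 reached at least 412 CPM (read counts scaled to a common library size) in every library, and the blood markers PTPRC and CD3E stayed at or below 0.0942 CPM. The lung lineage factor NKX2-1 was at most 0.144 CPM in either line, EPCAM at most 0.542 CPM in A549 and CDH1 at most 1.07 CPM in H1792, where the fibroblast collagen COL1A2 was at 920 to 1570 CPM. A549 DMSO replicate 1, the smallest library, stood apart from the other A549 DMSO libraries for several of the genes, and its effect is given with them. H1792 DMSO replicate 1 was the highest control of its line for LMNA and the lowest for HMGB1 and TOP2A, whose H1792 calls changed without it. All levels below are CPM scaled by TMM factors over the 14 libraries, and a gene was called changed at an adjusted p under 0.01 in edgeR's quasi-likelihood test, with p-values adjusted by Benjamini-Hochberg over all genes tested.

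AMG900 lowered 9 of the 10 genes in A549 and 5 of 10 in H1792, and raised none in either line. In A549 the falls ran from 1.67-fold for HMGB3 to 11.7-fold for TOP2A, and the AMG900 libraries lay below all DMSO libraries for each of the 9. Of the 13174 genes tested in A549, 17.8% were called lower and 22.0% had AMG900 libraries wholly below the DMSO libraries. In H1792 the genes that fell were LMNB1, LMNB2, LBR, HMGB3 and TOP2B, from 1.17-fold for LMNB2 to 2.82-fold for LBR, again without overlap. The background in H1792 was 18.8% of 15017 genes called lower and 29.6% wholly below. The median log2 fold change of the 10 genes was -1.80 in A549, against -0.01 over all genes, and -0.23 in H1792, against 0.01. A correction for GC content, described at the end, kept the 9 falls in A549 but turned the sign of LMNA in both lines and of HMGB1, HMGB2 and TOP2A in H1792. Called lower in both lines were 5 of the 10, where 9.31% of the 12625 genes tested in both lines were. Less of a transcript per cell and fewer cells that make it cannot be told apart in these bulk samples.

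**Figure D1:**
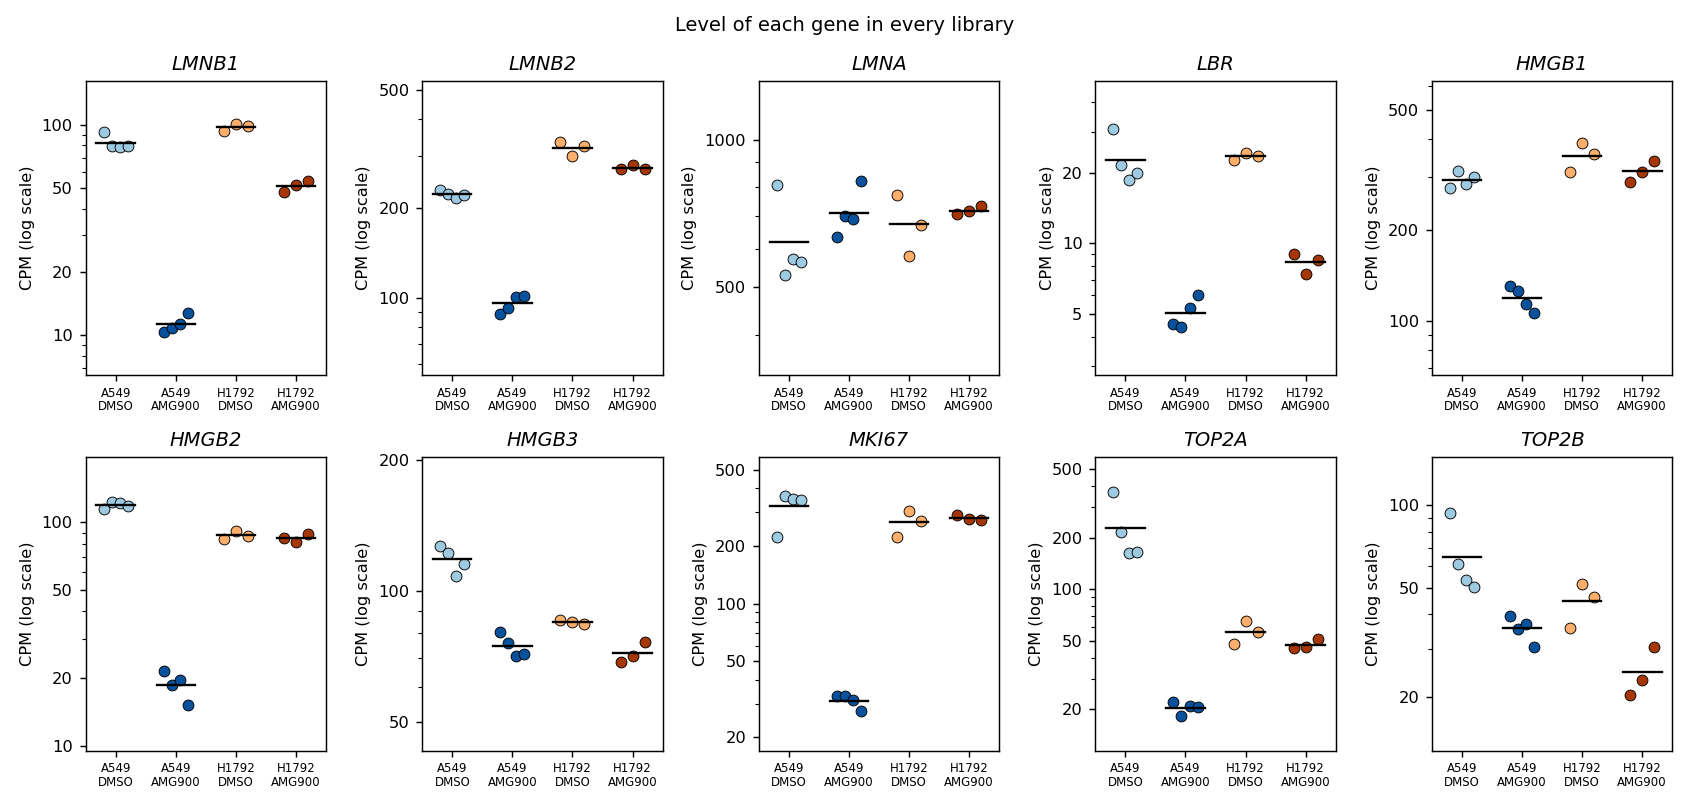
Level of each of the 10 genes in every library, in CPM on a log scale whose range differs between panels. Points are libraries (4 per A549 group, 3 per H1792 group) and bars are group means. LMNB1 falls from a mean of 82.5 to 11.4 CPM in A549 and from 97.8 to 51.3 CPM in H1792, while MKI67 falls from 322 to 31.1 CPM in A549 and has means of 265 and 280 CPM in H1792.

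LMNB1 (ENSG00000113368, GRCh37 chr5:126112315-126172712), the B-type lamin whose loss is used to mark senescence, was at 92.6, 79.4, 78.3 and 79.7 CPM in the A549 DMSO libraries and at 10.4, 10.9, 11.3 and 12.8 CPM with AMG900. With H1792 the levels were 93.7, 101 and 99.2 CPM with DMSO and 47.8, 52.0 and 53.9 CPM with AMG900. Every treated library was thus below every control library of its line, and the treated A549 libraries were far below those of H1792. The LMNB1 log2 fold change was -2.93 (SE 0.10, adjusted p = 2.7e-11, edgeR) in A549 and -0.94 (SE 0.06, adjusted p = 3.5e-06) in H1792. It ranked 107 from the lowest among the 13174 log2 fold changes of A549. The exact two-sided permutation p was 0.0286 in A549 and 0.100 in H1792, the smallest that 4 against 4 and 3 against 3 libraries allow, and each other gene called lower had the same values.

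LMNB2 (ENSG00000176619, chr19:2427636-2456957), the second B-type lamin, was more abundant and fell less. Its A549 levels were 230, 223, 217 and 221 CPM with DMSO and 88.5, 92.7, 101 and 102 CPM with AMG900. The H1792 libraries held 334, 299 and 324 CPM with DMSO and 271, 279 and 270 CPM with AMG900. The groups did not overlap in either line, but the gap in H1792 was narrow. The LMNB2 log2 fold change was -1.29 (SE 0.07, adjusted p = 2.1e-09, edgeR) in A549 and -0.23 (SE 0.05, adjusted p = 0.00593) in H1792. The H1792 call was lost, with adjusted p between 0.0232 and 0.0318, without H1792 DMSO replicate 3 or without any of the 3 H1792 AMG900 libraries.

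LMNA (ENSG00000160789, chr1:156052364-156109872), whose counts sum lamins A and C, was the gene called in neither line. A549 DMSO libraries held 810, 530, 572 and 563 CPM and A549 AMG900 libraries 632, 698, 688 and 824 CPM. For H1792 the values were 771, 579 and 669 CPM with DMSO and 705, 716 and 731 CPM with AMG900. The groups overlapped in both lines, with DMSO replicate 1 the highest control in each. The LMNA log2 fold change was 0.12 (95% interval -0.13 to 0.37, adjusted p = 0.423, edgeR) in A549 and 0.09 (-0.10 to 0.28, adjusted p = 0.408) in H1792. Without A549 DMSO replicate 1 LMNA was called higher in A549 (0.28, adjusted p = 6.7e-04), and without H1792 DMSO replicate 1 it was called higher in H1792 (0.18, adjusted p = 0.00995).

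LBR (ENSG00000143815, chr1:225589204-225616627), which also carries a sterol reductase activity, had the largest fall of the 10 genes in H1792. It was at 30.8, 21.6, 18.7 and 20.0 CPM with DMSO and 4.52, 4.40, 5.31 and 6.04 CPM with AMG900 in A549, where the treated libraries rest on 48 to 98 reads. H1792 libraries held 22.6, 24.4 and 23.5 CPM with DMSO and 9.04, 7.40 and 8.50 CPM with AMG900. Treated libraries were clearly separate from controls in both lines. The LBR log2 fold change was -2.21 (SE 0.18, adjusted p = 2.2e-07, edgeR) in A549 and -1.50 (SE 0.09, adjusted p = 2.5e-06) in H1792.

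HMGB1 (ENSG00000189403, chr13:31030841-31191734), the most abundant of the 3 HMGB transcripts by CPM, was at 275, 314, 285 and 300 CPM with DMSO and 131, 126, 114 and 106 CPM with AMG900 in A549. In the H1792 libraries it was at 312, 390 and 358 CPM with DMSO and 288, 312 and 340 CPM with AMG900. The A549 groups were well apart and the H1792 groups overlapped. The HMGB1 log2 fold change was -1.38 (SE 0.08, adjusted p = 6.9e-09, edgeR) in A549 and -0.18 (95% interval -0.37 to 0.01, adjusted p = 0.106) in H1792. Without H1792 DMSO replicate 1, the lowest control, HMGB1 was called lower in H1792 (-0.28, adjusted p = 0.00122). HMGB1 has many near-identical processed copies in the genome, and HMGB3P1, with 0 to 3 counts, was the only such HMGB1, HMGB2 or HMGB3 copy listed under its own symbol, so any reads shared with other copies cannot be seen.

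HMGB2 (ENSG00000164104, chr4:174252527-174255583) showed the sharpest contrast between the lines within its family. It was at 115, 123, 122 and 119 CPM with DMSO and 21.5, 18.7, 19.7 and 15.2 CPM with AMG900 in A549. For H1792 the controls were at 83.9, 91.4 and 87.1 CPM and the treated libraries at 85.0, 81.7 and 88.4 CPM. Treated A549 libraries were all far below controls, and treated H1792 libraries were interleaved with theirs. The HMGB2 log2 fold change was -2.75 (SE 0.11, adjusted p = 5.0e-11, edgeR) in A549 and -0.04 (95% interval -0.17 to 0.09, adjusted p = 0.564) in H1792.

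HMGB3 (ENSG00000029993, chrX:150148982-150159244) fell least of the 9 genes called lower in A549, from 108 to 127 CPM with DMSO to between 70.7 and 80.3 CPM with AMG900. In H1792 it went from 84.1 to 85.9 CPM to between 68.7 and 76.4 CPM. The treated libraries of the lines covered nearly the same levels. The HMGB3 log2 fold change was -0.74 (SE 0.08, adjusted p = 5.0e-06, edgeR) in A549 and -0.24 (SE 0.06, adjusted p = 0.00535) in H1792. The H1792 call was lost without H1792 DMSO replicate 3, AMG900 replicate 1 or AMG900 replicate 2, with adjusted p between 0.0220 and 0.0358.

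MKI67 (ENSG00000148773, chr10:129894923-129924687) was at 223, 365, 352 and 347 CPM in A549 with DMSO and at 32.7, 32.9, 31.4 and 27.3 CPM with AMG900. In H1792 it was at 222, 303 and 271 CPM with DMSO and 291, 277 and 273 CPM with AMG900. All treated A549 libraries lay at a narrow low level, and the treated H1792 libraries lay inside the range of their controls. The MKI67 log2 fold change was -3.46 (SE 0.14, adjusted p = 8.3e-11, edgeR) in A549, an 11.0-fold fall, and 0.08 (95% interval -0.13 to 0.29, adjusted p = 0.522) in H1792. A549 DMSO replicate 1 was the lowest control, and without it the A549 value was -3.59.

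TOP2A (ENSG00000131747, chr17:38544777-38574148) was at 369, 215, 163 and 165 CPM in A549 with DMSO and at 22.1, 18.4, 20.8 and 20.5 CPM with AMG900. H1792 levels were 48.2, 65.0 and 56.2 CPM with DMSO and 45.3, 45.8 and 51.1 CPM with AMG900. The A549 controls were the most scattered group of any of the 10 genes (coefficient of variation 42.6%), yet every treated library was far below them, and the H1792 groups overlapped. The TOP2A log2 fold change was -3.55 (SE 0.23, adjusted p = 1.7e-08, edgeR) in A549 and -0.26 (95% interval -0.48 to -0.03, adjusted p = 0.0555) in H1792. Without A549 DMSO replicate 1, the highest control, the A549 value was -3.22. Without H1792 DMSO replicate 1, the lowest control, TOP2A was called lower in H1792 (-0.38, adjusted p = 3.3e-04).

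TOP2B (ENSG00000077097, chr3:25639469-25706400) was called lower in both lines. It was at 93.8, 60.8, 53.4 and 50.2 CPM with DMSO and 39.6, 35.5, 37.0 and 30.3 CPM with AMG900 in A549. The H1792 controls held 35.8, 51.8 and 46.4 CPM and the treated libraries 20.4, 23.1 and 30.3 CPM. Groups did not overlap in either line. The TOP2B log2 fold change was -0.91 (SE 0.17, adjusted p = 5.1e-04, edgeR) in A549 and -0.86 (SE 0.16, adjusted p = 0.00108) in H1792. Without A549 DMSO replicate 1 the A549 value was -0.70 and still called, while with GC and length splines it was -0.53 and no longer called (adjusted p = 0.0152).

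**Figure D2:**
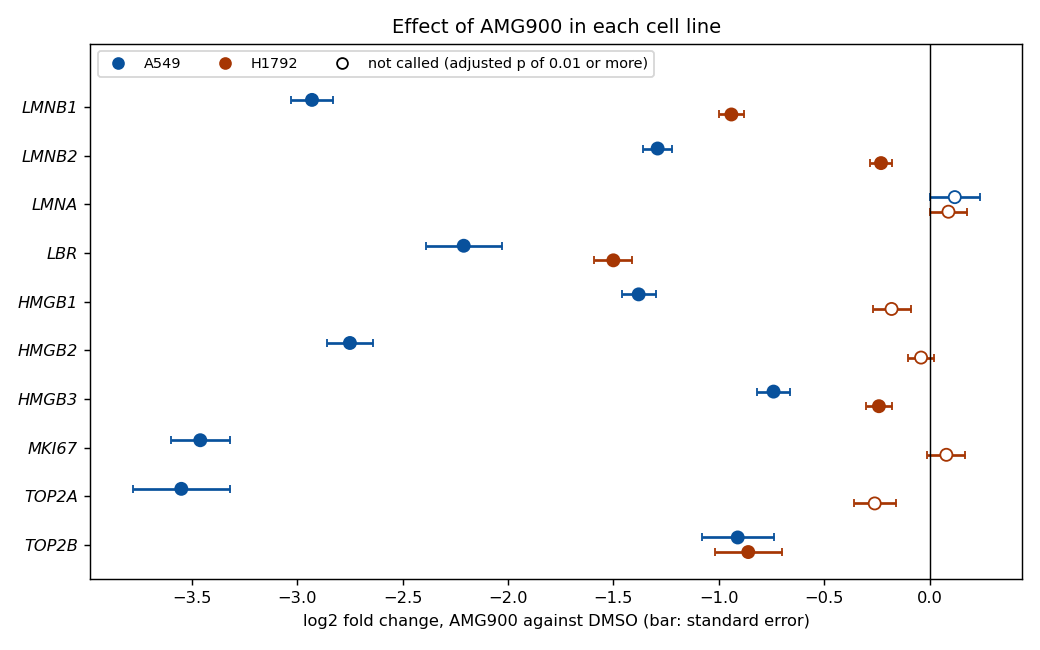
Log2 fold change of each gene with AMG900 against DMSO in A549 (4 against 4 libraries) and H1792 (3 against 3), with the standard error as a bar. Filled points were called at an adjusted p under 0.01. MKI67, TOP2A and HMGB2 lie at -3.46, -3.55 and -2.75 in A549 and at 0.08, -0.26 and -0.04 in H1792, whereas the TOP2B points nearly coincide at -0.91 and -0.86.

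The difference in response was tested directly as the interaction of line and treatment over the 14 libraries, given here as the H1792 minus the A549 log2 fold change. For 7 of the 10 genes the H1792 log2 fold change was called higher than that of A549, where 5.37% of 14769 genes were called in that direction and 14.5% in either. Of the 7, LMNB1, LMNB2 and HMGB3 were called lower in H1792, and MKI67, TOP2A, HMGB1 and HMGB2 were called in neither direction there. MKI67 differed most, by 3.46 (SE 0.19, adjusted p = 6.6e-11, edgeR), followed by TOP2A with 3.21 (SE 0.29, adjusted p = 9.5e-08) and HMGB2 with 2.64 (SE 0.12, adjusted p = 5.8e-12). Among the lamins LMNB1 differed by 1.91 (SE 0.12, adjusted p = 5.0e-10) and LMNB2 by 0.99 (SE 0.09, adjusted p = 1.1e-07). HMGB1 differed by 1.13 (SE 0.12, adjusted p = 1.3e-06) and HMGB3 by 0.42 (SE 0.10, adjusted p = 0.00499). The HMGB3 call was lost, with a highest adjusted p of 0.0223, in 7 of the 14 fits that left out a library (A549 DMSO replicate 2, A549 AMG900 replicate 3, each of the 3 H1792 DMSO libraries, and H1792 AMG900 replicates 2 and 3). No call was made for LBR, at 0.62 (95% interval 0.17 to 1.07, adjusted p = 0.0415), for LMNA at -0.11 (-0.47 to 0.25, adjusted p = 0.688) or for TOP2B at -0.04 (-0.57 to 0.49, adjusted p = 0.946). By DESeq2 LBR was called (0.71, adjusted p = 0.00923). The median over the 10 genes was 1.06, against -0.10 over all genes.

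Without treatment the lines differed most in TOP2A, which was 3.99-fold lower in H1792 than in A549 (log2 difference -2.00, SE 0.21, adjusted p = 4.3e-08, edgeR). HMGB2 (-0.45, adjusted p = 6.5e-05) and HMGB3 (-0.47, adjusted p = 9.1e-06) were also lower in H1792. LMNB2 (0.52, adjusted p = 4.7e-07), LMNB1 (0.25, adjusted p = 0.00758) and HMGB1 (0.27, adjusted p = 0.00894) were higher there, though the HMGB1 libraries of the lines overlapped. The LMNB1 call was lost in 10 of 23 alternatives, with an adjusted p of up to 0.0937 when scaled by total counts, and the HMGB1 call in 12 of 23, with up to 0.126. Over all genes 66.1% were called between the lines, 34.2% higher and 31.9% lower in H1792, so 6 calls among 10 genes are close to the background. MKI67 at -0.29 (95% interval -0.55 to -0.02), TOP2B at -0.50 (-0.87 to -0.12), LMNA at 0.13 (-0.13 to 0.38) and LBR at 0.08 (-0.22 to 0.38) were not called. Without A549 DMSO replicate 1, MKI67 was called lower in H1792 (-0.42, adjusted p = 1.5e-04) and LMNA higher (0.28, adjusted p = 0.00720). TOP2B was called lower by DESeq2 (-0.55, adjusted p = 0.00946), by total counts (-0.60, adjusted p = 0.00755), without a filter on low counts (-0.44, adjusted p = 0.00684) and without A549 DMSO replicate 4 (-0.60, adjusted p = 0.00750). Cell line, culture medium and count table go together here and cannot be told apart. The TOP2A of H1792 controls, a mean of 56.5 ± 8.40 CPM (SD, n = 3), was nonetheless above the 20.4 ± 1.55 CPM (SD, n = 4) of A549 with AMG900.

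Ratios of related genes within a library do not depend on how libraries are scaled, and are given as log2 ratios per kilobase of exon. LMNB1/LMNA was -1.72 ± 0.17 (SD, n = 4) in A549 with DMSO and -4.80 ± 0.04 with AMG900. The same ratio went from -1.61 ± 0.26 (SD, n = 3) to -2.64 ± 0.06 in H1792. LMNB2/LMNA moved the same way, by -1.43 in A549 and by -0.32 in H1792. The control and treated libraries did not overlap for these lamin ratios in either line.

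HMGB2/HMGB1 changed sign in A549, from 0.39 ± 0.06 (SD, n = 4) to -0.99 ± 0.13, while in H1792 it was -0.33 ± 0.10 (SD, n = 3) and -0.20 ± 0.10 with overlapping libraries. HMGB3/HMGB1 rose above the control range in A549, from -0.34 ± 0.13 to 0.30 ± 0.07, and overlapped in H1792. Both genes fell in A549, HMGB1 (log2 fold change -1.38) more than HMGB3 (-0.74). In H1792 TOP2B was called lower (log2 fold change -0.86) and TOP2A was not called (-0.26). The TOP2A/TOP2B ratio moved in opposite directions in the lines. It went from 3.33 ± 0.16 (SD, n = 4) to 0.75 ± 0.17 in A549 and from 1.89 ± 0.08 (SD, n = 3) to 2.51 ± 0.20 in H1792, without overlap in either. The size of these changes does not depend on gene length, but the level of a ratio does, most of all for TOP2B, whose union exon length is far above that of its MANE reference transcript. With MANE lengths, an alternative chosen after seeing the data, mean TOP2A/TOP2B went from 1.81 to -0.77 in A549 and from 0.38 to 0.99 in H1792, so which of them was the higher in treated A549 cells turned with the length used. HMGB3/HMGB1 then went from -0.68 to -0.03 in A549. HMGB2/HMGB1 still changed sign in A549, from 0.63 to -0.75, and was -0.09 and 0.04 in H1792.

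**Figure D3:**
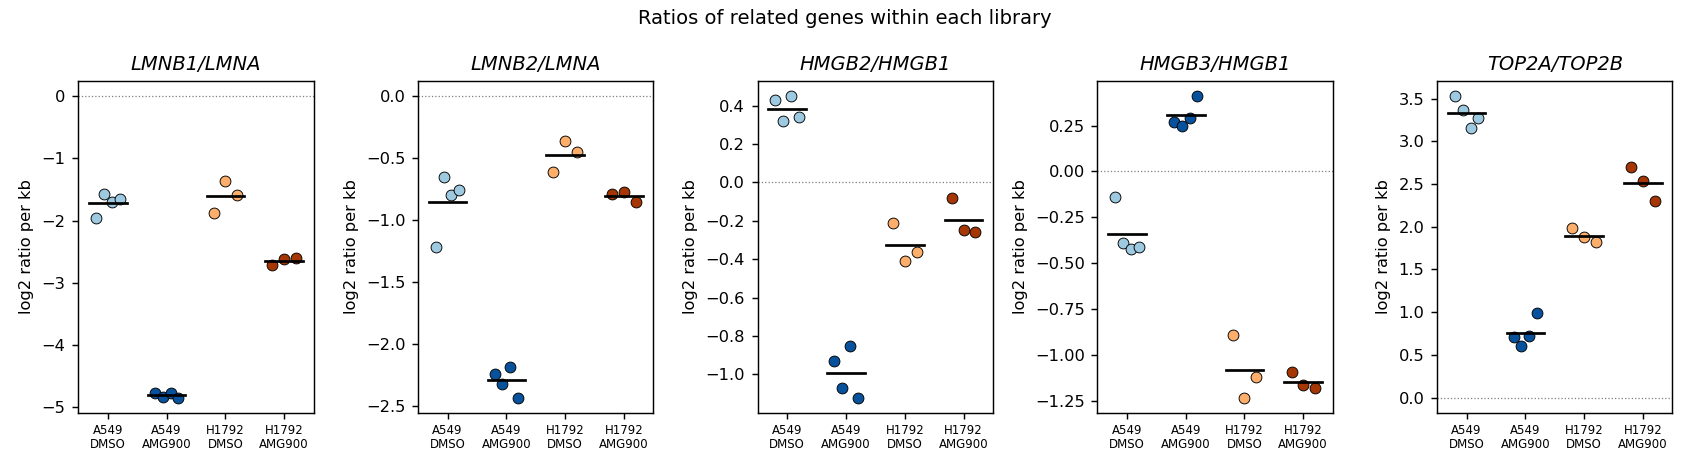
Log2 ratio of related genes per kilobase of union exon length in each library, with group means as bars and a dotted line at equal levels. Scales differ between panels. In A549 the HMGB2/HMGB1 mean goes from 0.39 to -0.99 and the TOP2A/TOP2B mean from 3.33 to 0.75, whereas in H1792 the TOP2A/TOP2B mean goes from 1.89 to 2.51.

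Ranked by RPKM, the CPM divided by exon length in kilobases, LMNA was the highest of the 10 genes in all 4 groups, from 76.0 in A549 controls to 88.1 in treated H1792. With union exon lengths LBR and TOP2B were the lowest pair in every group. In A549 controls HMGB2 (49.8 RPKM) followed LMNA, and the next 6 genes, LMNB2 (41.3), HMGB1 (38.1), TOP2A (35.8), HMGB3 (30.2), MKI67 (25.1) and LMNB1 (22.7), each overlapped their neighbour in that order. After AMG900 the order in A549 was LMNA, HMGB3 (19.1), LMNB2 (17.8), HMGB1 (15.5), HMGB2 (7.81), TOP2A (3.21), LMNB1 (3.13), MKI67 (2.42), TOP2B (1.91) and LBR (0.888). TOP2A and LMNB1 did not differ beyond their spread there, nor did HMGB3 and LMNB2, or LMNB2 and HMGB1. In H1792 controls LMNB2 (59.1), HMGB1 (45.9), HMGB2 (36.4) and LMNB1 (26.9) followed LMNA without overlap between neighbours, and HMGB3 (21.7) overlapped MKI67 (20.7), with TOP2A at 8.86, LBR at 4.12 and TOP2B at 2.40. After AMG900 LMNB1 dropped to the seventh place in H1792 with 14.1 RPKM, below MKI67 (21.8) and HMGB3 (18.4). With MANE lengths LMNA was also first in every group and LBR was last in all 4. TOP2B then moved from place 9 to place 6 in treated A549, above LMNB1, TOP2A and MKI67, was at place 9 in the other 3 groups, and some neighbours changed places.

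Over the 14 libraries, log2 CPM of MKI67 and HMGB2 had a Pearson correlation of 0.986, of MKI67 and HMGB1 0.970 and of MKI67 and LMNB1 0.950. MKI67 and TOP2B had 0.222, and LMNA was negatively correlated with all the other 9 genes (-0.106 to -0.444). These values describe 14 libraries that share 2 lines and 2 treatments and are not independent. Among 10855 genes, those closest to MKI67 were CIT (0.997), TICRR (0.995) and AURKA (0.993). Closest to LMNB1 were ZNF367 (0.991), KIAA0101 and MCM2 (0.989 each). For LMNB2 they were E2F1 (0.997), CCNF (0.996) and RFC2 (0.995), and for HMGB2 KIF23 (0.996), FOXM1 (0.993) and HMMR (0.992). HMGB1 was closest to ILF2 (0.989), EXOSC8 and NUSAP1 (0.987 each), and HMGB3 to ARL6IP1 (0.986), EIF4A3 (0.972) and LDHA (0.971). TOP2A had PAQR4 (0.977) and MCM8 (0.975), TOP2B had IPO7 (0.977), XPOT (0.976) and HNRNPU (0.974), and LBR had CYP1B1 (0.979), SRSF7 (0.978) and CDCA7 (0.971). LMNA had PKD1 (0.938) and RBM42 (0.932), lower values than those named for the other 9 genes.

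Genes that work beside these 10 were counted from lists chosen by function, with earlier results of these data known. The counts are thus not an independent comparison with all genes, of which 17.8% were called lower in A549 and 18.8% in H1792. Called higher were 17.2% and 16.2%. Falls and rises given for named genes of all the lists are log2 fold changes. Of the nuclear envelope and lamina partners tested, 15 of 29 fell and 1 rose in A549 (median log2 fold change -0.43), and 11 of 30 fell and 2 rose in H1792 (median -0.17). TMPO, a lamin-binding LEM protein, fell by 2.13 (adjusted p = 9.7e-09, edgeR) and VRK1, the kinase of the DNA bridging factor BANF1, fell by 3.02 (adjusted p = 2.0e-05) in A549. LEMD3, an inner membrane LEM protein, fell by 1.38 (adjusted p = 7.0e-05) and ZMPSTE24, the protease that matures prelamin A, fell by 1.31 (adjusted p = 1.1e-05) in H1792, where BANF1 rose by 0.32 (adjusted p = 8.3e-04). PRR14, a tether of heterochromatin to the lamina, rose by 0.43 (adjusted p = 0.00538) in A549 and by 0.52 (adjusted p = 4.3e-05) in H1792.

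Other HMG proteins fell in 10 of 19 cases in A549, with 1 rise (median -0.44), and in 6 of 19 in H1792, with 4 rises (median -0.15). The nucleosome binder HMGN2 fell by 1.23 (adjusted p = 2.1e-08, edgeR) and HMGXB4 fell by 0.94 (adjusted p = 1.4e-04) in A549, where TOX2 rose by 0.57 (adjusted p = 0.00127). HMGN4 fell by 0.93 (adjusted p = 9.2e-06) and TFAM, which packs mitochondrial DNA, fell by 0.86 (adjusted p = 2.7e-05) in H1792, where HMGA1 rose by 0.30 (adjusted p = 5.8e-04) and HMG20B by 0.38 (adjusted p = 3.1e-04). Of 14 other topoisomerases and partners, 7 fell and none rose in A549 (median -0.46), and 5 fell and 3 rose in H1792 (median -0.10). In A549 RMI2 fell by 3.53 (adjusted p = 4.5e-08) and the helicase BLM, its partner in dissolving recombined DNA, fell by 2.99 (adjusted p = 1.0e-06). RMI1 fell by 2.36 (adjusted p = 2.3e-04) and RMI2 fell by 1.12 (adjusted p = 4.7e-05) in H1792, while TOP3B rose by 0.43 (adjusted p = 6.3e-04) and ATF7IP by 0.47 (adjusted p = 0.00463).

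Partners of Ki-67 at the chromosome surface and in the nucleolus fell in 17 of 18 cases in A549 (median -0.76) and in 8 of 18 in H1792, with 1 rise (median -0.19). The condensin subunit NCAPG fell by 3.43 (adjusted p = 2.3e-08, edgeR) and the chromokinesin KIF4A fell by 3.17 (adjusted p = 1.2e-10) in A549. In H1792 the phosphatase subunit PPP1CB fell by 1.78 (adjusted p = 3.0e-07) and the condensin subunit SMC2 fell by 1.18 (adjusted p = 8.4e-05), and NIFK, which binds the Ki-67 forkhead-associated domain, rose by 0.65 (adjusted p = 0.00480). Other proliferation markers fell in all 19 tested in A549 (median -3.01) and in 11 of 20 in H1792, with 2 rises (median -0.23). The cyclin CCNA2 fell by 4.63 (adjusted p = 1.2e-08) and RRM2, a subunit of ribonucleotide reductase, fell by 3.87 (adjusted p = 3.5e-12) in A549. In H1792 the checkpoint kinase TTK fell by 1.52 (adjusted p = 4.7e-04) and CCNA2 fell by 1.32 (adjusted p = 1.9e-06), while CENPF rose by 0.26 (adjusted p = 0.00889) and UBE2C by 0.37 (adjusted p = 1.8e-04). So falls and rises stood side by side among proliferation markers in H1792.

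Of 29 arrest and secreted genes used as senescence markers, 22 in A549 and 27 in H1792 passed the filter on low counts. Called higher were 21 of the 22 in A549 (median 1.13) and 14 of the 27 in H1792 (median 0.36), and none was called lower. The 13 not called in H1792 had log2 fold changes of both signs, among them IL1A (0.53) and CXCL8 (-0.27). The cytokines IL1B, up by 2.73 (adjusted p = 1.4e-06, edgeR), and IL1A, up by 2.59 (adjusted p = 1.6e-04), rose most in A549. IL1A went from 0.571 ± 0.322 CPM with DMSO to only 3.74 ± 1.45 CPM with AMG900 (SD, n = 4 each). It passed the filter on low counts only with its treated libraries, so its place among the genes tested depended on its rise. In H1792 the collagenase MMP1 rose by 2.35 (adjusted p = 1.2e-05) to 3.54 ± 0.258 CPM (SD, n = 3) and the stress cytokine GDF15 by 1.67 (adjusted p = 6.1e-06). The lists share no gene with the 10, and the counts are descriptions, with no test of a list.

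**Figure D4:**
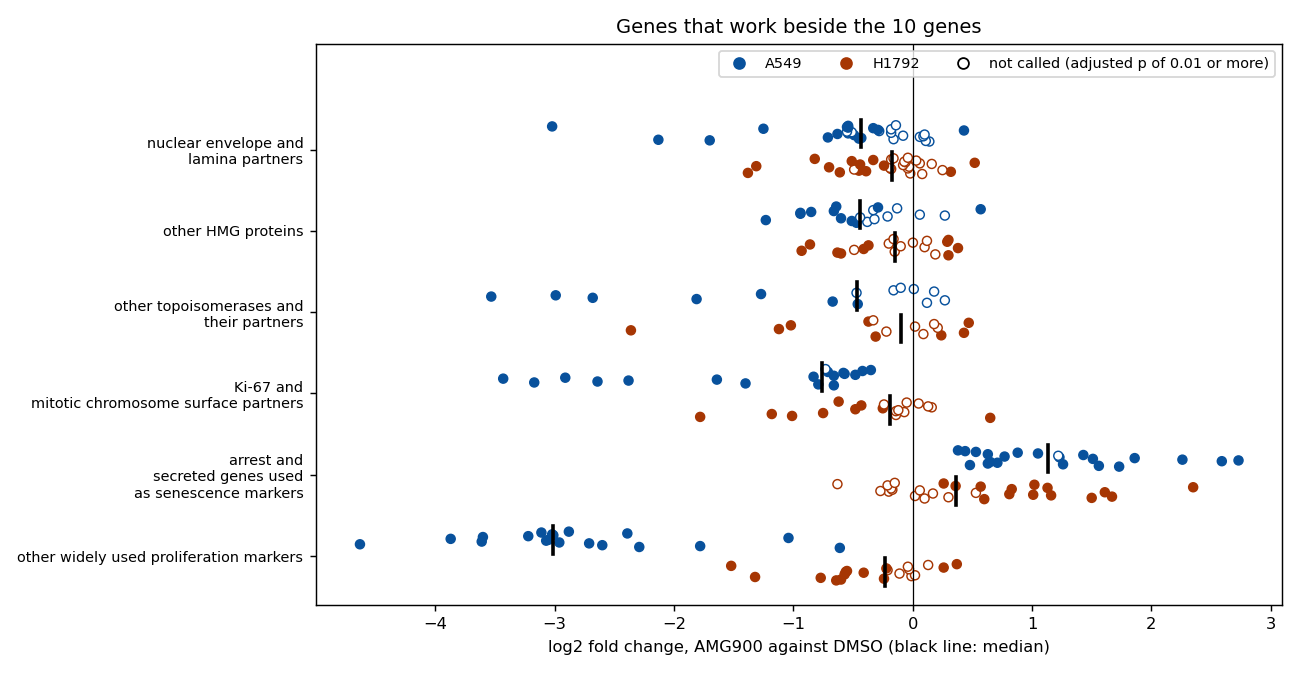
Log2 fold change with AMG900 of the genes on each list, with A549 above H1792 in each row. Filled points were called at an adjusted p under 0.01, and the vertical bar is the median of the list. Proliferation markers have a median of -3.01 in A549 and -0.23 in H1792, and senescence markers of 1.13 and 0.36.

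Fold changes in both lines moved with the GC content of the transcript. The Spearman correlation across genes was 0.496 over 12788 genes in A549 and 0.479 over 14373 in H1792, where genes are not independent replicates. Genes of up to 40% GC had a median log2 fold change of -0.45 in A549 and -0.47 in H1792, and genes above 60% GC of 0.37 and 0.23. HMGB1 (37.8% GC), LBR (38%), TOP2A (38.9%) and HMGB2 (39.4%) belong to the low class, LMNB2 (61.1%) and LMNA (61.5%) to the high class, and LMNB1 (47.8%) and MKI67 (48.3%) are in the middle. After a GC spline was removed from each library, all 9 falls in A549 were still called, with LMNB1 at -2.90, MKI67 at -3.44 and TOP2A at -3.08. In H1792 LMNB1 (-0.93), LBR (-1.03), TOP2B (-0.62) and LMNB2 (-0.55) were still called lower, HMGB3 was not (-0.08, adjusted p = 0.240, edgeR), and LMNA was called lower (-0.23, adjusted p = 0.00266). HMGB1 (0.31, adjusted p = 6.3e-04) and HMGB2 (0.34, adjusted p = 1.4e-04) were then called higher in H1792, and TOP2A turned to 0.16 without a call. The differences between the lines moved little, with MKI67 at 3.42, TOP2A at 3.12 and HMGB2 at 2.56, though HMGB3 lost its call (0.32, adjusted p = 0.0106). What part GC content has in the fold changes was not tested.

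**Figure D5:**
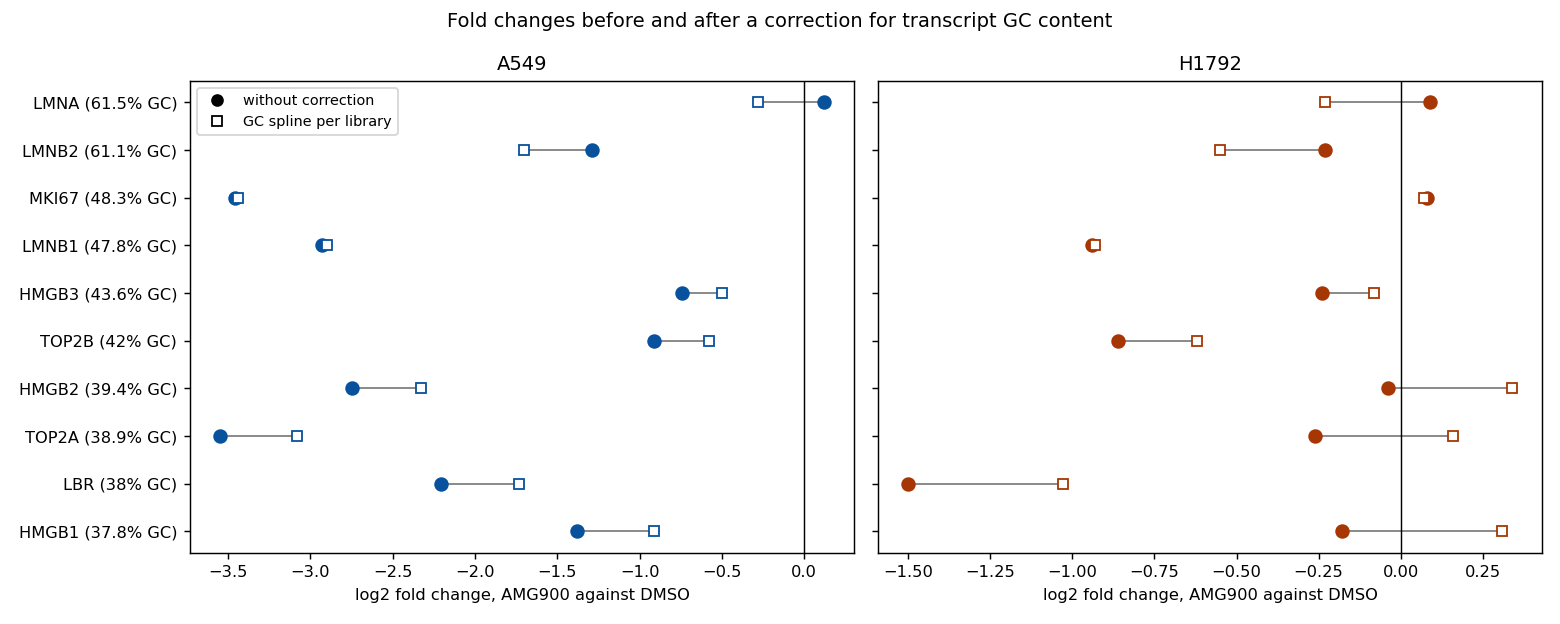
Log2 fold change of each gene before (filled circles) and after (open squares) removal of a GC spline per library, with genes ordered by the GC content of the MANE transcript and a separate scale for each line. In H1792 HMGB1, HMGB2 and TOP2A go from -0.18, -0.04 and -0.26 to 0.31, 0.34 and 0.16, while LMNB1 and MKI67 hardly move in either line.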

How the data were processed

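Total RNA (RNeasy kit) was sequenced on an Illumina machine. The authors deposited raw read counts per gene symbol, 1 table per cell line with 26760 entries each. HTSeq is named in the column headers, and the submitters' processing notes list STAR, HTSeq, hg19 and GRCh37 without roles. Versions, annotation and counting options, including strand, are not given in the sources used here. Among the H1792 entries, 28 with calendar dates for names (0.101% to 0.117% of counts) were left out.

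Counts were filtered with filterByExpr, scaled by TMM and tested in edgeR 4.0.16 by quasi-likelihood (R 4.3.3, limma 3.58.1) with Benjamini-Hochberg adjustment over all genes tested and an FDR threshold of 0.01, as the study used, in each line and over all 14 libraries for the interaction and the untreated difference. Intervals are 95%. Log2 CPM used a prior count of 2. The CPM and RPKM levels come from scaling over the 14 libraries, and fold changes from the fit of each line, so the ratio of the printed means can differ slightly from the fold. RPKM used the union exon length, the summed length of all annotated exons, in GENCODE lifted to GRCh37. GC content was that of the MANE transcript, or of the longest transcript for genes without one, fitted as a natural spline with 5 degrees of freedom. Likeness was computed among genes with a mean of at least 100 counts. The biological coefficient of variation was 12.8% in A549, 9.60% in H1792 and 11.3% over both. The fits were also run on counts simulated from the fitted model, and the outcome is not reported here.

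The 10 genes and all lists were chosen with earlier results of these data known. Named genes were the 10, in every comparison, with the 3 genes most like each (2 of these are not reported here), and, from each list, up to 2 with the largest increase and 2 with the largest decrease among those called in a line. Alternatives were DESeq2 1.42.0, its size factors, scaling by total counts, no filter or at least 10 counts in every library, an FDR of 0.05, a change of at least 2-fold, GC and length splines, a replicate block, and each library left out in turn.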

Additional observations from a re-analysis of the deposited data

Results flagged for a closer look

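A549 DMSO replicate 1 lay far from the other A549 DMSO libraries for 3 genes: LMNB1 at 92.6 CPM against 78.3 to 79.7, LMNA at 810 CPM against 530 to 572, and MKI67 at 223 CPM against 347 to 365. The 3 are among 20 groups of 4 libraries examined, and chance alone sets about 1 in 20 such groups apart. All 3 come from the same library, so they are not independent and cannot be counted against that rate. It was the smallest library, with 4254644 counts, and also the highest control for TOP2A (369 CPM), TOP2B (93.8 CPM) and LBR (30.8 CPM). What made it differ was not tested. Without it the same 9 genes were called lower in A549, and LMNA was called higher.

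The response to AMG900 differed between the lines, by the interaction test of edgeR, for MKI67 (3.46, H1792 minus A549, on the log2 scale), TOP2A (3.21), HMGB2 (2.64), LMNB1 (1.91), HMGB1 (1.13), LMNB2 (0.99) and HMGB3 (0.42). In each of the 7 every treated A549 library was below every A549 control. In H1792 that held for LMNB1, LMNB2 and HMGB3. Over all genes tested, 22.0% in A549 and 29.6% in H1792 had treated libraries wholly below the controls. The 7 were picked by this same difference, so their separation in A549 adds no further support. Cell line, medium, sequencing depth and the number of libraries differ together between the lines, and their parts cannot be told apart.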

How the results depend on the processing

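The count of genes called lower in A549 was 9 in the main test and 9 without any single library, 8 with GC and length splines (TOP2B lost, -0.53, adjusted p = 0.0152) and 7 with a change of at least 2-fold. Genes called higher numbered 0 to 1 without a library in A549 (LMNA, without DMSO replicate 1) and 0 to 1 in H1792 (LMNA, without DMSO replicate 1), and 2 in H1792 with the GC spline or with GC and length splines. Called lower in H1792 were 3 to 7 without a library and 1 at a 2-fold change. There were 3 when DMSO replicate 3, AMG900 replicate 1 or AMG900 replicate 2 was left out, and 7 without DMSO replicate 1. Calls over all genes in H1792 went from 5266 to 3615, 3235 and 3458 without those 3 libraries in turn. They went to 6703 without H1792 DMSO replicate 1, and in A549 from 4605 to 5854 without A549 DMSO replicate 1. Between untreated lines, 1 to 3 were called higher in H1792 without a library (LMNB1 or HMGB1 or both lost), 1 with DESeq2 size factors or total counts and 0 at 2-fold, and 1 was called lower at 2-fold.

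Replicate numbers did not pair the libraries (same-number correlations -0.0391 to 0.0126 in A549 and -0.0604 to 0.0425 in H1792). With a replicate block 3 genes were called lower in H1792, without LMNB2 and HMGB3, 9 in A549, and 6 in the interaction, and calls over all genes went to 3907, 4788 and 1588 from 4605, 5266 and 2148.

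With the GC spline the change in ratio was -2.64 in A549 and -0.70 in H1792 for LMNB1/LMNA, 0.03 in H1792 for HMGB2/HMGB1, 0.40 and -0.39 for HMGB3/HMGB1 and 0.79 in H1792 for TOP2A/TOP2B. HMGB3/HMGB1 in H1792 ranged from -0.14 to 0.03 without a library, 0.03 being without DMSO replicate 1. With MANE lengths the level ratio turned sign with AMG900 for TOP2A/TOP2B (-0.77) and HMGB3/HMGB1 (-0.03) in A549 and HMGB2/HMGB1 (0.04) in H1792, since a length moves every library of a ratio by the same amount.

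Signs turned with GC, then with GC and length splines, for LMNA in A549 (-0.28, -0.26) and, in H1792, for LMNA (-0.23, -0.20), HMGB1 (0.31, 0.36), HMGB2 (0.34, 0.22) and TOP2A (0.16, 0.21). In H1792 they also turned for LMNA without DMSO replicate 2 (range without a library -0.02 to 0.18) and MKI67 without DMSO replicate 1 (range -0.06 to 0.18). The TOP2B interaction became 0.07 with DESeq2, 0.05 with its size factors or total counts, and ranged from -0.24 to 0.09 without a library, with 0.04, 0.07, 0.02, 0.08, 0.09 and 0.01 among them. Between untreated lines LMNA was -0.04 with GC, MKI67 0.14 with GC and length, and LBR -0.02 by total counts and -5.5e-04 without A549 DMSO replicate 3 (range to 0.23). The cause was not tested for any of these.

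At 2-fold, calls over all genes were 1464 in A549, 1257 in H1792, 911 in the interaction and 5783 of 9762 between untreated lines. They were 3616 in the interaction at an FDR of 0.05, and 3235 and 3458 in H1792 without AMG900 replicates 1 and 2. The A549 libraries are shallower than those of H1792, and treated LBR there rests on under 100 reads per library.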
